A study of Mus musculus with 18 samples.

Results

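The Hox genes encode homeobox transcription factors and lie in 4 chromosomal clusters, named a to d, in which each gene carries a paralog number from 1 to 13. All protein-coding genes of the count table whose symbol is Hox followed by a cluster letter and a paralog number were taken as members, which gave 39 of the 53379 genes counted. The rule uses the symbol and the gene type and no measured value, but it was chosen with earlier results of these data known. The members comprised 11 Hoxa genes (chromosome 6), 10 Hoxb genes (GRCm38 chr11:96194316-96368256), 9 Hoxc genes (chr15:102921103-103036852) and 9 Hoxd genes (chr2:74668310-74765142). They were counted by RNA sequencing in 18 libraries from BALB/cJ mice (an inbred laboratory strain), all female and aged 6 to 8 weeks. Every mouse was lethally irradiated and received 10000000 bone marrow cells, so that neither group was untreated. The BM group received marrow alone, and the BMT group received marrow together with 1000000 T cells. Tissue was taken on day 7 from bulk liver and from epithelial cells isolated from the small and the large intestine, with 3 libraries per treatment in each tissue. For the donors the strain was not given in the sources used here. The descriptions give each library 1 of 6 numbers, 3 for BM and 3 for BMT, which recur in all 3 tissues. The labels do not say that these number animals or that replicates were separate animals, so the p-values below describe spread between libraries that may be technical, and libraries of different tissues may share a mouse.

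The labels of the intestinal libraries contradict each other. In 6 libraries the title says small intestine and the description has the code LI, and in the other 6 the title says large intestine and the description has the code SI. The sets are therefore called by their codes. Of 18 marker genes of large intestinal epithelium, 13 were higher in all 6 LI libraries than in all 6 SI libraries and 0 were lower. Of 24 marker genes of small intestinal epithelium, 20 were lower in all 6 LI libraries and 0 were higher. The summed colon markers ran from 9901 to 23343 CPM (a gene's counts scaled to the library total, the usual unit) in LI and from 1300 to 2782 CPM in SI, and the summed small intestinal markers from 1008 to 1334 CPM in LI and from 30694 to 45866 CPM in SI. These markers thus went with the codes and against the titles. All 10 hepatocyte genes of a marker list were lower in LI and in SI than in liver by edgeR's quasi-likelihood test.

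Along each cluster the gene order matches the paralog number, and in the embryo genes of low number are active toward the head and genes of high number toward the tail. In the gut the cells of each region retain part of that address in adult life, so that the set of Hox genes transcribed differs between the proximal and distal intestine. Cdx proteins activate Hox genes along the trunk and hindgut, Pbx and Meis proteins bind DNA together with Hox proteins, and Polycomb and trithorax complexes keep clusters silent or active.

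The promoters of 3 genes of high paralog number, among those with the largest difference between the intestinal sets, are shown for their contrast in base composition. Each holds 250 bases before and 50 bases after the RefSeq start (table build GRCm38.p6), is written 5′ to 3′ on the gene's strand, and has every CG dinucleotide in capitals. Hoxa13 is on the minus strand at chr6:52260831-52261130, Hoxd13 on the plus strand at chr2:74667975-74668274 and Hoxa9 on the minus strand at chr6:52227321-52227620, inside the annotated span of its gene.
Hoxa13 promoter: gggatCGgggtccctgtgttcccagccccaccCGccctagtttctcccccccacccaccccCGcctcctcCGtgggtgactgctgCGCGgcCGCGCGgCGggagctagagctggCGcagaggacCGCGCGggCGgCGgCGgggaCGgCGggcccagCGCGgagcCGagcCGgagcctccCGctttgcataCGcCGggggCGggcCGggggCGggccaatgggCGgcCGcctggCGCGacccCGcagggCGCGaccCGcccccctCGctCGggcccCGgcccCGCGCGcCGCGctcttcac
Hoxd13 promoter: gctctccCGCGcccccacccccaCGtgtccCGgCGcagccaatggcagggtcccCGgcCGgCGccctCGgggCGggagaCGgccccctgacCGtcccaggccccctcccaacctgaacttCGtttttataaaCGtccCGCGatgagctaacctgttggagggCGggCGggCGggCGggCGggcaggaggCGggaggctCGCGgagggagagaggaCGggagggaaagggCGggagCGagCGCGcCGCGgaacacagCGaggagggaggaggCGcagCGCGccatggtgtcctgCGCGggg
Hoxa9 promoter: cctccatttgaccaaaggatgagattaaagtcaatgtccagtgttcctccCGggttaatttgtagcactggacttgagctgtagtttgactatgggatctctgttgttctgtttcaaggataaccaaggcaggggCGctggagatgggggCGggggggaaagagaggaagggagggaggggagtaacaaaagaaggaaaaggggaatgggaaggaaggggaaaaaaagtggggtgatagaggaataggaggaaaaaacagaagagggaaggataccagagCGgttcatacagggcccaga
The Hoxa13 window had a GC content of 81% with 45 CG dinucleotides, the Hoxd13 window 74.33% with 37, and the Hoxa9 window 49.67% with 4. The table held 24 promoters of 22 Hox genes, with a median GC content of 57.67% and a median of 14.5 CG dinucleotides, against 52.67% and 7 over all 32851 promoters. The letters TTTATG, the core bound by CDX proteins, were found on either strand in 5 of the 24 Hox promoters and in 11.9% of all promoters. The composite TGATTNAT of Pbx and Hox proteins was found in 2 of 24 and in 3.22% of all, while the letters TATAAA were found in 4 of 24 and in 13.6% of all. A match describes letters and not a bound site.

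The clusters also carry microRNA genes of the miR-10 and miR-196 families, which are known to silence Hox mRNAs. Their mature sequences are shown because the seed (bases 2 to 8, in capitals) defines the target letters counted below.
mmu-miR-10a-5p: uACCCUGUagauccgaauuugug
mmu-miR-10b-5p: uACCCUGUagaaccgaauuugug
mmu-miR-196a-5p: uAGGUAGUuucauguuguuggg
mmu-miR-196b-5p: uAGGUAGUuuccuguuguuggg
mmu-miR-10a-5p is encoded at chr11:96317186-96317208 (plus strand) in the Hoxb cluster and mmu-miR-10b-5p at chr2:74726074-74726096 (plus strand) in the Hoxd cluster. mmu-miR-196a-5p is encoded at chr11:96265187-96265208 (plus strand, Hoxb cluster) and at chr15:102973365-102973386 (plus strand, Hoxc cluster), and mmu-miR-196b-5p at chr6:52230129-52230150 (minus strand, Hoxa cluster). Members of each family share 1 seed. The letters complementary to the miR-10 seed, ACAGGGT, occurred in the 3′ UTR of 4 of 39 Hox genes (Hoxa3, Hoxb3 and Hoxd1 among them) and of 13.1% of 21010 genes. Those complementary to the miR-196 seed, ACTACCT, occurred in 9 of 39 (among them Hoxa4, Hoxa5, Hoxa7, Hoxa9, Hoxb6, Hoxb7 and Hoxc8) and in 6.54% of all. Hoxb8 mRNA, known as a target that miR-196 cleaves, holds a stretch at chr11:96284888-96284909 (plus strand) in which 21 of 22 bases form Watson-Crick pairs with mmu-miR-196a-5p and 1, in capitals, is a G:U wobble.
Hoxb8 site: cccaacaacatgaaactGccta
The libraries were made from polyA RNA and do not measure mature microRNAs.

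Depth ran from 18845483 to 25610937 counts per library, and 3 counts corresponded to 0.117 to 0.159 CPM. The mitochondrial share of counts lay between 2.77 and 10.7% and was lower in all BMT than in all BM libraries of a tissue. Markers of T cells rose in every set: 12 of 12 passed the test in each, and their sum went from 6.72 to 8.86 CPM in BM to 380 to 609 CPM in BMT in LI, from 4.30 to 13.05 to 201 to 301 CPM in SI and from 4.16 to 7.92 to 70.3 to 72.4 CPM in liver. These are mixed cell fractions or whole tissue, so fewer cells of a type and less RNA per cell cannot be told apart in any comparison below. Each ± on a level is an SD and each ± on a log2 fold change a standard error, and intervals and floors from counts cover counting error only.

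Hox transcripts were plentiful in LI, fewer in SI and nearly absent from liver. Summed over the 39 genes, the 3 LI BM libraries held 477, 509 and 520 CPM and the 3 LI BMT libraries 268, 384 and 424 CPM. The SI BM libraries held 163, 119 and 85.4 CPM and the SI BMT libraries 56.1, 76.4 and 54.2 CPM. Liver held 1.72, 1.14 and 1.91 CPM in BM and 2.00, 2.35 and 2.22 CPM in BMT. All LI libraries lay above all SI libraries, and in both intestinal sets every BMT library lay below every BM library. The mean in BMT was 0.714 times that in BM in LI and 0.509 times in SI. Liver went the other way, at 1.38 times, with every BMT library above every BM library, on 25 to 58 Hox counts per library.

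Detection followed the same order. In all 6 libraries of a set, 26 of 39 Hox genes were counted in LI, 12 in SI and 6 in liver, while 8, 15 and 23 had no count in any library of the set. A mean of at least 1 CPM was reached by 18 genes in LI, 8 in SI and 0 in liver. A mean of at least 5 CPM was reached by 12 genes in LI (Hoxa3, Hoxa5, Hoxa7, Hoxa9, Hoxa10, Hoxa13, Hoxb6, Hoxb7, Hoxb8, Hoxb9, Hoxb13 and Hoxd13) and by 4 in SI (Hoxb6 to Hoxb9).

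The clusters contributed unequally. Hoxa genes summed to 132 to 171 CPM in LI, 0.90 to 4.68 CPM in SI and 0.50 to 1.09 CPM in liver. Hoxb genes summed to 129 to 325 CPM in LI and 52.6 to 157 CPM in SI, against 0.636 to 1.42 CPM in liver. Hoxd genes summed to 7.69 to 34.5 CPM in LI and 0.102 to 0.95 CPM in SI, and had no count in liver. Hoxa and Hoxd transcripts were thus counted mostly in LI, while Hoxb was transcribed in both intestinal sets. No Hoxc gene had more than 6 counts in any set, and Hoxc9, Hoxc10, Hoxc12 and Hoxc13 had none in all 18 libraries. The Hoxc cluster summed to at most 0.0477 CPM in LI, 0.364 CPM in SI and 0.122 CPM in liver.

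**Figure D1:**
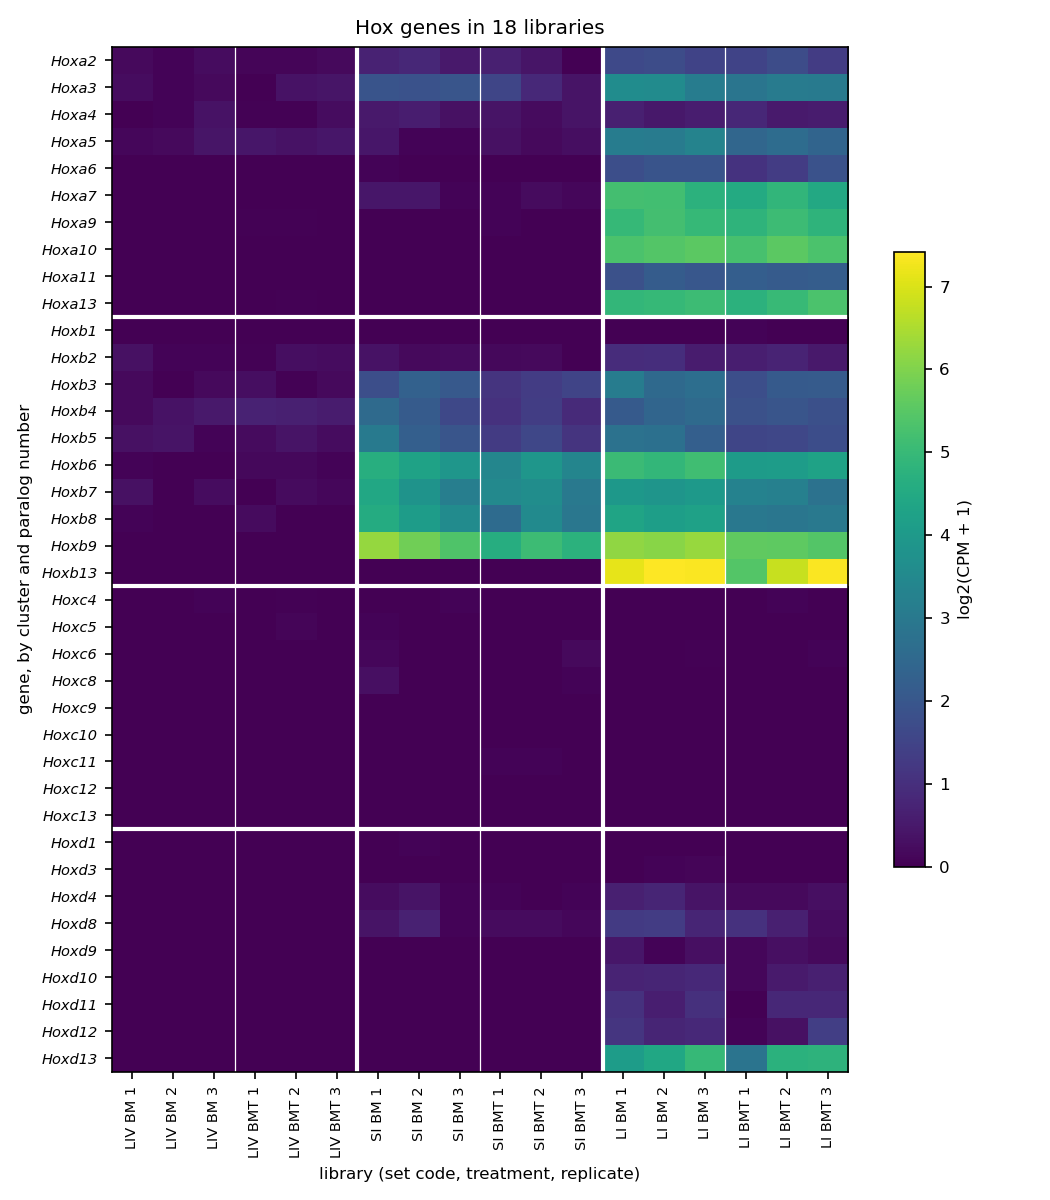
Level of 38 of the 39 protein-coding Hox genes (colour, log2 of CPM + 1) in each of the 18 libraries, ordered by cluster and paralog number. The LI libraries hold signal through the Hoxa genes and up to Hoxb13 and Hoxd13, the SI libraries in the Hoxb genes up to Hoxb9, and liver in almost none.

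To compare genes within a set, levels were divided by gene length and given as RPKM (CPM per kilobase of the length deposited for the gene). In SI the highest RPKM belonged to Hoxb9 in 6 of 6 libraries, with 16.4 ± 7.58 RPKM (n = 6) and 36.7 to 43.9% of all Hox RPKM. Hoxb7 with 7.63 ± 3.25 and Hoxb6 with 7.57 ± 2.83 RPKM followed and did not differ beyond their spread. Hoxb8 with 4.57 ± 2.44 RPKM overlapped both in range but lay below both in every SI library. Hoxb5 (1.10 ± 0.788), Hoxb4 (0.897 ± 0.614), Hoxb3 (0.552 ± 0.251) and Hoxa3 (0.315 ± 0.184 RPKM) lay lower, with neighbouring values within their spread. Within each SI library, though, Hoxb5 lay above Hoxb4. The highest SI level of the Hoxb cluster therefore lay at paralog 9, with the next gene, Hoxb13, at 0 counts in 6 of 6 libraries.

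In LI the highest RPKM belonged to Hoxb13 in 6 of 6 libraries, with 59.8 ± 22.5 RPKM (n = 6). Its share of all Hox RPKM ran from 18.6 to 43.5%, and the low end came from LI BMT library 1, in which Hoxb13 (18.999 RPKM) and Hoxb9 (18.507 RPKM) were close. Hoxb9 came next with 22.9 ± 5.86 RPKM. Hoxa10 (12.7 ± 1.15), Hoxa13 (12.6 ± 1.67), Hoxb6 (12.4 ± 4.30), Hoxa7 (9.77 ± 2.13), Hoxd13 (8.46 ± 3.56) and Hoxb7 (7.178 ± 2.4998 RPKM) formed a middle range in which neighbours did not differ beyond their spread. Hoxa9 (5.51 ± 0.582), Hoxb8 (4.71 ± 2.34), Hoxa5 (3.35 ± 1.02), Hoxa6 (2.54 ± 0.840), Hoxa11 (1.44 ± 0.187) and Hoxa3 (1.42 ± 0.344 RPKM) had lower means. So did Hoxb4, Hoxb5, Hoxa2 and Hoxb3, at 1.06 to 1.33 RPKM. This order holds for means: Hoxa9 (5.96 and 4.90 RPKM) lay above Hoxb7 (5.44 and 3.86 RPKM) in LI BMT libraries 2 and 3. The order, and the shares by paralog number below, also depend on the deposited lengths. Hoxa9 has 5580 bases and Hoxa13 2472, while their mean CPM in LI were alike (30.8 and 31.2). In liver the highest means were those of Hoxb4, 0.164 ± 0.0741 RPKM, and Hoxa5, 0.140 ± 0.0648 RPKM.

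By paralog number, the posterior genes 9 to 13 took 67.3 to 80.1% of Hox RPKM in the 6 LI libraries and 36.9 to 43.9% in the 6 SI libraries. The central genes 4 to 8 took 18.02 to 29.76% in LI and 51.8 to 59.6% in SI, and the anterior genes 1 to 3 took 1.83 to 2.97% and 2.04 to 4.27%. The ranges of LI and SI did not overlap for posterior and central genes and overlapped for anterior genes. In liver, where the sum rested on few counts, posterior genes took 0 to 2.56% and central genes 59.98 to 79.74%.

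**Figure D2:**
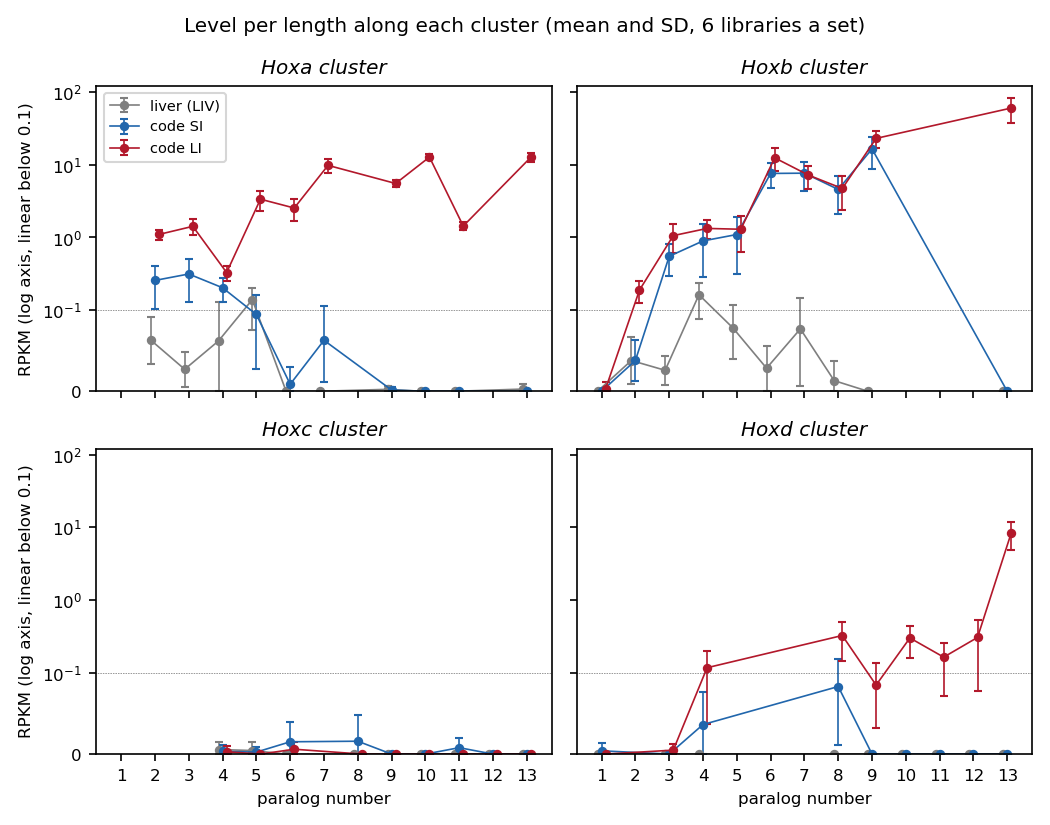
Mean level per gene length (RPKM) by paralog number in each cluster, for LI, SI and liver (n = 6 libraries per set, bars are SD, log axis that is linear near 0). The SI profile of the Hoxb cluster peaks at Hoxb9 with 16.4 RPKM, while the LI profile goes on to Hoxb13 with 59.8 RPKM.

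For the contrast of LI with SI, the 12 intestinal libraries were fitted together with treatment balanced in both sets, and p-values here and below are Benjamini-Hochberg adjusted over all genes tested. Of the 39 Hox genes 24 passed the filter on low counts, and 20 of these were higher in LI and 0 lower at an adjusted p of 0.05 by edgeR and by DESeq2 (21 and 0 at an unadjusted p under 0.05), while 20% of all 15815 genes tested were called higher and 15.6% lower. All LI libraries lay above all SI libraries for 14 Hox genes, as for 6.81% of all genes. Of the 24 genes, 15 passed that filter in LI and not in SI (8 of them without a count in SI), so that they entered through the set where they are high. Their calls support nothing, and their values and ratios below are a description. The other 9 passed in SI too (Hoxa2, Hoxa3 and Hoxb3 to Hoxb9), and 6 of them were higher in LI. Markers of other cells were counted in both sets: T cell markers summed to 6.72 to 609 CPM in LI and 4.30 to 301 CPM in SI (2 of 12 higher in LI), myeloid markers to 38.5 to 144 CPM and 16.2 to 35.1 CPM (3 of 7 tested higher, 1 lower), fibroblast markers to 21.98 to 149 CPM in LI and 19.2 to 68.6 CPM in SI (2 of 10 tested higher in LI), smooth muscle markers to 2.69 to 7.00 CPM and 1.22 to 3.41 CPM (2 of 2 higher), and enteric neural markers to 2.42 to 3.68 CPM and 2.27 to 4.45 CPM (edgeR called 0 of 2), with Sox10 at 0 in SI. Their part in the contrast was not tested.

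Genes of group 13, the last of each cluster, were counted in LI and not in SI. Hoxb13 (chr11:96194316-96197447), a posterior gene known from the hindgut, rectum and prostate, ran from 41.9 over a median of 152 to 170 CPM in the 6 LI libraries and was at 0 counts in all 6 SI libraries. Pooled over the set it was at least 5694-fold higher in LI, against a floor of 3 counts in SI. Hoxa13 (chr6:52257694-52260880), which with Hoxd13 patterns the embryonic hindgut and cloaca, ran from 26.3 over 30.4 to 38.5 CPM in LI and was also at 0 in SI, at least 1345-fold apart. Hoxd13 (chr2:74668310-74671599) ran from 6.26 over 23.1 to 30.5 CPM in LI with 0 in SI, at least 916.1-fold apart. All 3 paralogs of group 13 that were detected were therefore LI genes, and Hoxc13 had no count anywhere.

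Hoxa10 and Hoxa9 showed the same split within the Hoxa cluster. Hoxa10 (chr6:52231197-52240854) ran from 37.0 over 40.9 to 46.1 CPM in LI and had 0 counts in SI, at least 1795-fold apart. Hoxa9 (chr6:52223100-52231089) ran from 27.4 over 30.4 to 35.6 CPM in LI and had 1 count in all of SI, a ratio of 3977 with a counting interval of 713.3 to 1.571e+05. Mir196b lies wholly within the exons of Hoxa9, and its counts cannot be told apart from those of the host. Hoxa11 was at least 141.6-fold higher in LI, with 35.0% of its exon bases shared with the antisense gene Hoxa11os. At the Hoxd end, Hoxd12, Hoxd11, Hoxd10 and Hoxd9 were at 0 in SI and at least 32.98, 30.07, 23.93 and 7.761-fold higher in LI, where none of them exceeded 102 counts over the set.

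Central and anterior Hoxa genes were present in both sets at very different levels. Hoxa7 ran from 21.1 over 27.4 to 35.5 CPM in LI and from 0.0511 over 0.129 to 0.364 CPM in SI, a log2 fold change of 7.34 ± 0.26, with 20.4% of its exon bases shared with Hoxaas3. Hoxa5, known for its part in gut and lung patterning, ran from 4.29 over 6.29 to 8.90 CPM in LI and from 0.0452 over 0.171 to 0.364 CPM in SI, a log2 fold change of 5.09 ± 0.30. Hoxa3 ran from 6.40 over 7.62 to 11.3 CPM in LI and from 0.300 over 2.29 to 2.91 CPM in SI, a log2 fold change of 2.39 ± 0.26 (adjusted p = 2.51e-06). For these 3 genes no LI library overlapped an SI library. Pooled over each set, the ratio of LI to SI was 4.349 for Hoxa2, 4.587 for Hoxa3, 1.617 for Hoxa4, 35.68 for Hoxa5, 150.6 for Hoxa7 and 287.2 for Hoxa6, the last with 1 count in SI and a counting interval of 51.14 to 1.138e+04. The ratios of the central Hoxa genes from Hoxa5 on were thus larger than those of Hoxa2 to Hoxa4, and Hoxa4 itself was not called (adjusted p = 0.0731).

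Of the 5 central Hoxb genes, Hoxb5, Hoxb7 and Hoxb8 were not called between the sets. Hoxb7 ran from 5.96 over 11.1 to 15.2 CPM in LI and from 6.94 over 10.9 to 20.96 CPM in SI, a log2 difference of -0.10 with a 95% interval of -0.53 to 0.32 (adjusted p = 0.732). Hoxb8 ran from 6.55 over 11.9 to 18.9 CPM in LI and from 5.09 over 10.8 to 22.5 CPM in SI, a log2 difference of 0.01 with an interval of -0.41 to 0.44 (adjusted p = 0.966). The sets overlapped for both genes, and both intervals span 0. Hoxb5 ran from 1.92 over 3.09 to 5.91 CPM in LI and from 1.16 over 2.47 to 7.09 CPM in SI (log2 difference 0.33, interval -0.18 to 0.84, adjusted p = 0.312).

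Hoxb4 and Hoxb6 of that central group were called higher in LI, and so were Hoxb3 and Hoxb9 beside it. Hoxb9 (chr11:96271457-96276595) ran from 42.6 over 57.7 to 76.9 CPM in LI and from 23.8 over 36.9 to 74.7 CPM in SI, a log2 fold change of 0.56 ± 0.14 (adjusted p = 0.00515). Hoxb6 ran from 15.9 over 23.8 to 34.3 CPM in LI and from 9.43 over 13.9 to 24.05 CPM in SI, a log2 fold change of 0.72 ± 0.15 (adjusted p = 0.00126). The sets overlapped for both. Hoxb3 and Hoxb4 had log2 fold changes of 0.98 ± 0.20 (adjusted p = 0.00128) and 0.77 ± 0.23 (adjusted p = 0.0154), again with overlap. Hoxb3 shares 52.9% of its exon bases with the antisense gene Hoxb3os (strand setting of the counting not given in the sources used here).

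Almost all Hox genes tested against liver entered through the intestinal set where they are high: 1, Hoxb4, passed the filter on low counts in liver. The other 23 of 24 in LI and 8 of 9 in SI did not, and the counts are a description. Against liver, 24 Hox genes were tested in LI and 24 were higher and 0 lower by edgeR and DESeq2 (40% and 38.9% of all genes), with 23 not overlapping (44.2% of all genes). In SI 9 were tested and 8 were higher and 0 lower by both (39.8% and 38.5% of all genes), with 7 not overlapping (45.1% of all genes). Hoxa2 was the gene not called in SI (adjusted p = 0.0863). Hoxb9 had no count in liver and was at least 2688-fold higher in LI and at least 1925-fold higher in SI. Large shares were thus called between these tissues over all genes as well.

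In LI 8 Hox genes were lower with the T cell graft, 7 of them in the Hoxb cluster, and 17 of 25 were not called. Of 39 Hox genes 25 were tested in BMT against BM, and 8 were lower and 0 higher (beside 21% and 20.4% of all 14880 genes). At an unadjusted p under 0.05, 10 were lower and 0 higher, and DESeq2 called 7 lower and 0 higher. The 8 were Hoxa5, Hoxb3, Hoxb4, Hoxb5, Hoxb6, Hoxb7, Hoxb8 and Hoxb9. For 10 Hox genes, these 8 with Hoxa3 and Hoxd10, every BMT library lay below every BM library (28.3% of all genes did). The median log2 fold change was -0.56 over the 25 Hox genes and 0.00 over all genes.

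Hoxb8, a central gene and the miR-196 target shown above, had the smallest p. It stood at 18.9, 16.9 and 18.2 CPM in the LI BM libraries and at 6.84, 6.55 and 7.01 CPM in the LI BMT libraries, a log2 fold change of -1.39 ± 0.16 (edgeR adjusted p = 6.85e-05). Hoxb6 stood at 32.1, 29.2 and 34.3 CPM in BM and at 15.9, 16.2 and 18.5 CPM in BMT, a log2 fold change of -0.91 ± 0.15 (adjusted p = 0.000879). Hoxb9 stood at 72.5, 67.8 and 76.9 CPM in BM and at 47.6, 46.4 and 42.6 CPM in BMT, a log2 fold change of -0.66 ± 0.12 (adjusted p = 0.00125). In each of these 3 genes the 3 BMT libraries lay close together and well below the BM libraries.

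Hoxb7 stood at 14.7, 13.5 and 15.2 CPM in BM and at 8.77, 8.39 and 5.96 CPM in BMT, a log2 fold change of -0.90 ± 0.18 (adjusted p = 0.00212). Hoxb5 stood at 5.91, 5.70 and 3.79 CPM in BM and at 1.92, 1.97 and 2.38 CPM in BMT, a log2 fold change of -1.27 ± 0.26 (adjusted p = 0.00298). The 5 Hoxb genes of the central group thus all fell, Hoxb4 least firmly: it stood at 3.31, 4.36 and 4.88 CPM in BM and at 2.59, 2.87 and 2.48 CPM in BMT (log2 fold change -0.66 ± 0.24, adjusted p = 0.0473), and its call was lost in 9 of 11 alternatives. Hoxb3, an anterior gene, stood at 7.74, 4.80 and 5.43 CPM in BM and at 2.42, 3.32 and 3.34 CPM in BMT (log2 fold change -0.97 ± 0.25, adjusted p = 0.0114), and without LI BM library 1 its adjusted p was 0.0602.

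Among Hoxa genes Hoxa5 was the 1 called. It stood at 7.59, 7.41 and 8.90 CPM in BM and at 4.43, 5.16 and 4.29 CPM in BMT, a log2 fold change of -0.78 ± 0.19 (adjusted p = 0.00738). Hoxa3 stood at 11.31, 11.002 and 7.692 CPM in BM and at 6.40, 7.54 and 7.39 CPM in BMT without passing the test (log2 fold change -0.48 ± 0.20, adjusted p = 0.0836). Hoxa7 stood at 35.5, 35.0 and 26.5 CPM in BM and at 22.3, 28.4 and 21.1 CPM in BMT with 1 BMT library inside the BM range (log2 fold change -0.43 ± 0.16, adjusted p = 0.0582).

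The posterior Hoxa genes, which set LI apart from SI, were not called. Hoxa10 stood at 38.7, 42.6 and 45.4 CPM in BM and at 37.0, 46.1 and 39.2 CPM in BMT (log2 fold change -0.04, 95% interval -0.35 to 0.26). Hoxa9 stood at 30.2, 35.6 and 30.7 CPM in BM and at 27.4, 33.3 and 27.4 CPM in BMT (log2 fold change -0.13, interval -0.44 to 0.19), and Hoxa13 at 29.0, 30.2 and 32.6 CPM in BM and at 26.3, 30.7 and 38.5 CPM in BMT (log2 fold change 0.07, interval -0.32 to 0.47). Of the 4 tested Hoxa genes of groups 9 to 13, 0 were called, with log2 fold changes of -0.13 to 0.24. For Hoxa9, Hoxa10 and Hoxa13 the intervals end above the -0.66 of Hoxb9, whose own interval of -0.92 to -0.40 overlaps that of Hoxa9. The difference between genes was not tested. Scaled to epithelial markers instead (below), the 4 genes Hoxa9, Hoxa10, Hoxa11 and Hoxa13 lay at -0.52, -0.45, -0.17 and -0.37, so that the sign of Hoxa11 and Hoxa13 turned, and none was called by edgeR (adjusted p of 0.0619 to 0.63).

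Hoxb13 and Hoxd13 were not called either, and the fold changes of both moved with single libraries. Hoxb13 stood at 140, 170 and 166 CPM in BM and at 41.9, 110 and 164 CPM in BMT (log2 fold change -0.56, interval -1.40 to 0.28, adjusted p = 0.266). Hoxd13 stood at 16.1, 20.4 and 30.5 CPM in BM and at 6.26, 25.8 and 26.9 CPM in BMT (log2 fold change -0.17, interval -1.15 to 0.82, adjusted p = 0.789). LI BMT library 1 was the lowest of the 6 LI libraries for both and also for Hoxd10, Hoxd11 and Hoxd12, with 2, 0 and 1 counts, against 10 to 21, 12 to 27 and 6 to 34 in the other 5 libraries. It was also the lowest of the 6 for Hoxa10 (37.0 CPM, the next 38.7) and Hoxa13 (26.3 CPM, the next 29.0). For Hoxa9 it lay just above the lowest (27.42 against 27.37 CPM). Without that library the log2 fold change was -0.16 for Hoxb13 (adjusted p = 0.561) and 0.27 for Hoxd13 (adjusted p = 0.419), and without LI BMT library 3 Hoxb13 was called lower at -1.09 (adjusted p = 0.00946). Over 11 alternatives the adjusted p of Hoxb13 ran from 0.003 to 0.561, with a call in 3.

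**Figure D3:**
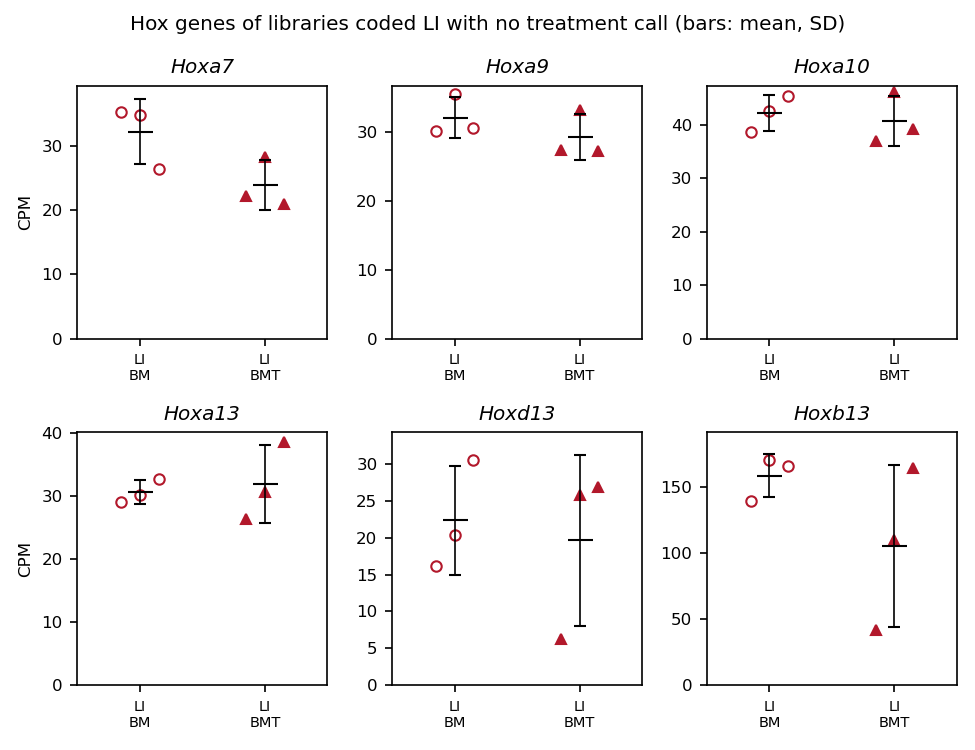
Level (CPM) of 6 Hox genes not called with treatment, Hoxa7 and 5 posterior genes, in each LI library, with points for libraries and bars for the mean and SD of 3. Hoxa9, Hoxa10 and Hoxa13 overlap between BM and BMT, while Hoxb13 spreads from 41.9 to 164 CPM within BMT.

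In SI the same direction appeared in the Hox genes transcribed there. Of 39 Hox genes 9 were tested, and 7 were lower and 0 higher in BMT (11.8% and 11.6% of all 14621 genes), in edgeR and in DESeq2 and also at an unadjusted p under 0.05. The same 7 had every BMT library below every BM library (22.9% of all genes did). For Hoxb8 and Hoxb6 the nearest libraries were almost level, at 10.81 and 13.77 CPM in BMT against 10.84 and 14.01 CPM in BM. The median log2 fold change was -1.02 over the 9 Hox genes and 0.02 over all genes. Hoxb9, the leading SI gene, stood at 74.7, 55.1 and 40.4 CPM in BM and at 23.8, 33.3 and 26.1 CPM in BMT, a log2 fold change of -0.995 ± 0.237 (edgeR adjusted p = 0.0116). It was the gene called in each of the 6 fits that left out 1 library.

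Hoxb5 stood at 7.09, 3.75 and 2.91 CPM in SI BM and at 1.43, 2.02 and 1.16 CPM in SI BMT (log2 fold change -1.55 ± 0.39, adjusted p = 0.0148). Hoxb4 stood at 4.95, 3.35 and 2.05 CPM in BM and at 1.06, 1.54 and 0.857 CPM in BMT (log2 fold change -1.54 ± 0.39, adjusted p = 0.0151). Hoxb8 stood at 22.5, 16.2 and 10.8 CPM in BM and at 5.09, 10.8 and 6.69 CPM in BMT (log2 fold change -1.10 ± 0.32, adjusted p = 0.0317). SI BM library 1 was the highest of the 6 in these 3 genes and in Hoxb9, and without it the log2 fold change was -0.71 for Hoxb9 (adjusted p = 0.0496) and -0.77 for Hoxb8 (adjusted p = 0.145).

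Hoxb3 stood at 2.41, 3.98 and 3.17 CPM in SI BM and at 1.167, 1.502 and 1.843 CPM in SI BMT (log2 fold change -1.02 ± 0.31, adjusted p = 0.0372). Hoxb6 stood at 24.05, 18.28 and 14.01 CPM in BM and at 9.66, 13.8 and 9.43 CPM in BMT (log2 fold change -0.74 ± 0.24, adjusted p = 0.0487). Hoxa3 stood at 2.77, 2.67 and 2.91 CPM in BM and at 1.91, 0.815 and 0.300 CPM in BMT (log2 fold change -1.46 ± 0.48, adjusted p = 0.0479). These 3 calls lay near the threshold: Hoxa3 was lost in 5, Hoxb3 in 4 and Hoxb6 in 5 of 11 alternatives. Hoxb7 stood at 20.96, 12.98 and 7.977 CPM in BM and at 10.35, 11.499 and 6.942 CPM in BMT and was not called (adjusted p = 0.286). The count of 7 fell to 2 without SI BM library 1 or SI BMT library 1, to 3 without SI BM library 2 and to 4 without SI BMT library 3.

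**Figure D4:**
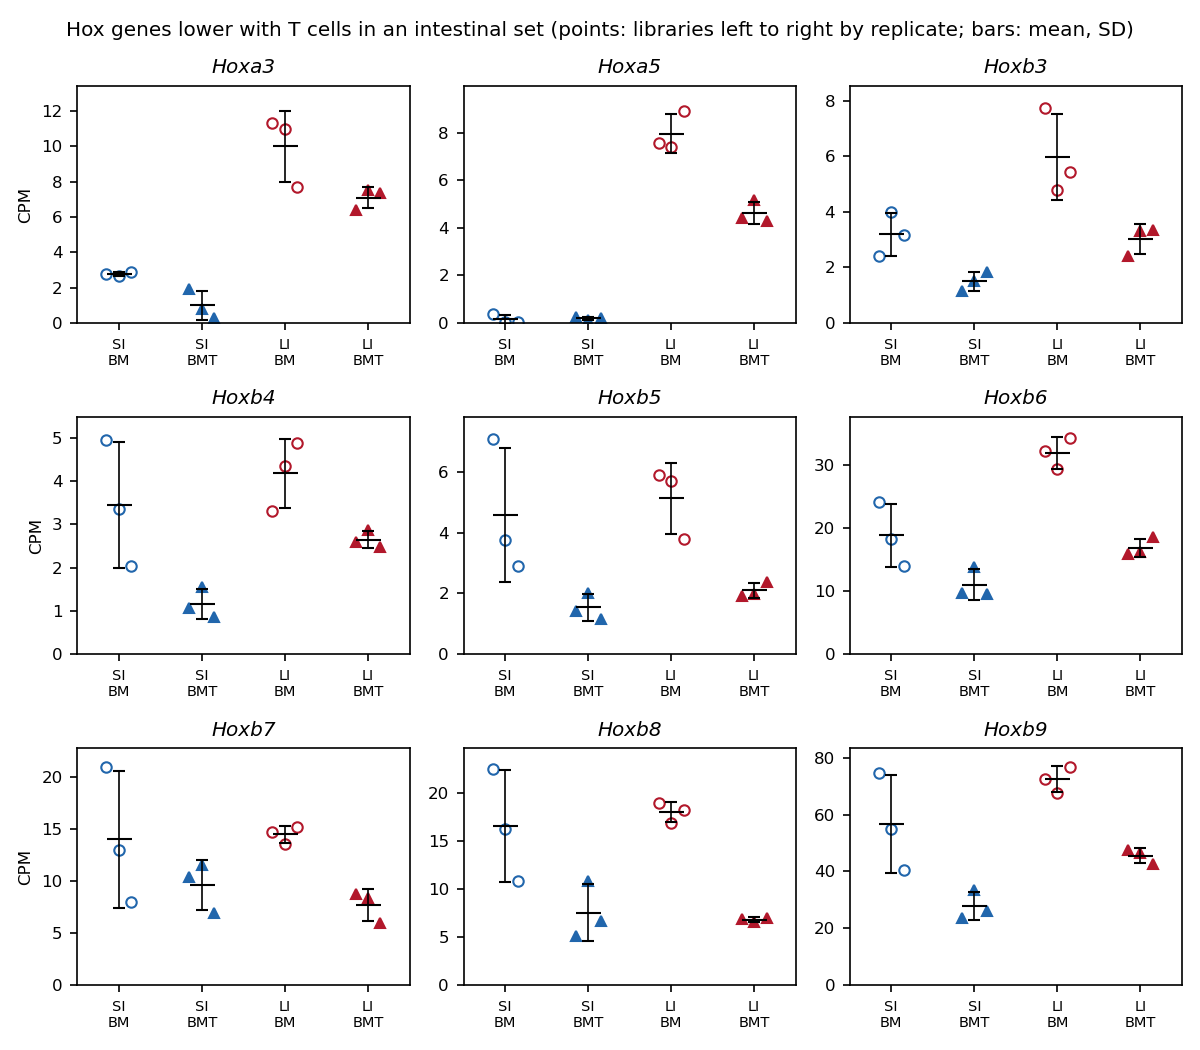
Level (CPM) of Hox genes called in BMT against BM in either intestinal set, for each LI and SI library, with points for libraries and bars for the mean and SD of 3. For Hoxb8 the LI BMT libraries lie at 6.55 to 7.01 CPM under LI BM at 16.9 to 18.9 CPM. The SI BMT libraries lie at 5.09 to 10.81 CPM and SI BM at 10.84 to 22.5 CPM, almost touching.

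Markers of other cells moved with the treatment in these fractions, and their part in the Hox falls was not tested apart from 1 rescaling. The counts of calls in this paragraph stand beside shares of all genes of 20.4% higher and 21% lower in LI. The shares were 11.6% and 11.8% in SI, and 7.46% and 3.35% in liver. The 10 general epithelial markers were higher in sum: they came to 16748 to 19439 CPM in LI BM and 22286 to 27946 CPM in LI BMT (4 of 10 higher, 0 lower) and to 17277 to 19377 CPM in SI BM and 20556 to 22330 CPM in SI BMT (2 higher, and Elf3 lower with a log2 fold change of -0.92, adjusted p = 0.00232). With libraries scaled to these 10 markers, a setting chosen after seeing the data, 13 Hox genes were lower in LI and 7 in SI, while the median of all genes moved to -0.41 in LI and -0.25 in SI on the log2 scale. The rescaling moves all genes about alike, and with it Hoxb8 stood at -1.81 and Hoxb9 at -1.07 in LI and Hoxb9 at -1.26 in SI. Under that scaling 21.2% of all calls in LI and 23.5% in SI were higher, against 49.3% and 49.7% under TMM. The 18 colon markers summed to 21591 to 23343 CPM in LI BM and 9901 to 13369 CPM in LI BMT, with 9 lower and 3 higher. In SI the small intestinal markers went the other way, with 9 of 22 tested higher and 3 lower and a median log2 fold change of 0.71. Fibroblast markers rose in sum, from 21.98 to 25.98 CPM in LI BM to 97.2 to 149 CPM in LI BMT. The 2 of 10 tested that were higher, Vim (3.99) and Fn1 (3.84), are also made by leukocytes, the other 8, among them Col1a1, Col3a1 and Dcn, were not called, and the median log2 fold change was -0.17. Myeloid markers summed to 38.5 to 40.9 CPM in LI BM and 84.6 to 144 CPM in LI BMT (6 of 7 tested higher, among them S100a9 by 7.56 and Lyz2 by 3.59 on the log2 scale), to 16.2 to 26.6 CPM in SI BM and 20.4 to 35.1 CPM in SI BMT (1 of 7 higher, 1 lower), and to 90.4 to 115 CPM in liver BM and 271 to 647 CPM in liver BMT (11 of 12 higher). Of 2 smooth muscle markers tested in LI, Acta2 was higher (2.45) and Tagln not called. Markers of early blood progenitors, cells that also use Hox genes, though epithelium transcribes some of the same genes, summed to 237 to 268 CPM in LI BM and 110 to 166 CPM in LI BMT (3 of 3 tested lower, Kit, Mecom and Myb, while Meis1 of the same list did not exceed 0.134 CPM) and to 164 to 184 CPM in SI BM and 93.6 to 145 CPM in SI BMT (2 of 4 lower). The mitochondrial share of counts fell from 9.72 to 10.7% in LI BM to 6.24 to 7.46% in LI BMT and from 7.30 to 8.63% in SI BM to 4.83 to 6.01% in SI BMT.

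Whether the BMT effect differed between LI and SI was tested as an interaction over the 12 intestinal libraries. None of the 24 Hox genes tested was called by edgeR or DESeq2 (3.42% of all genes were called by edgeR with a more positive effect in LI and 3% with a more negative one), and 8 of the 24 had no count in SI. At an unadjusted p under 0.05 there were 0 as well. Among the 16 others the smallest adjusted p was 0.251, for Hoxa3, with a difference of 1.02 ± 0.51 in log2 fold change. Hoxb8 fell by 1.39 in LI and by 1.10 in SI on the log2 scale, a difference of -0.29 with an interval of -1.13 to 0.55 (adjusted p = 0.714). For Hoxb9 the difference was 0.34 with an interval of -0.25 to 0.94 (adjusted p = 0.503), and for Hoxb6 -0.16 with an interval of -0.79 to 0.48. In simulated counts this test recovered 18% of 2-fold and 80% of 4-fold differences in genes drawn at random from all those tested. Differences of 2-fold were thus mostly missed in such genes, and the rate for the Hox genes themselves was not simulated.

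**Figure D5:**
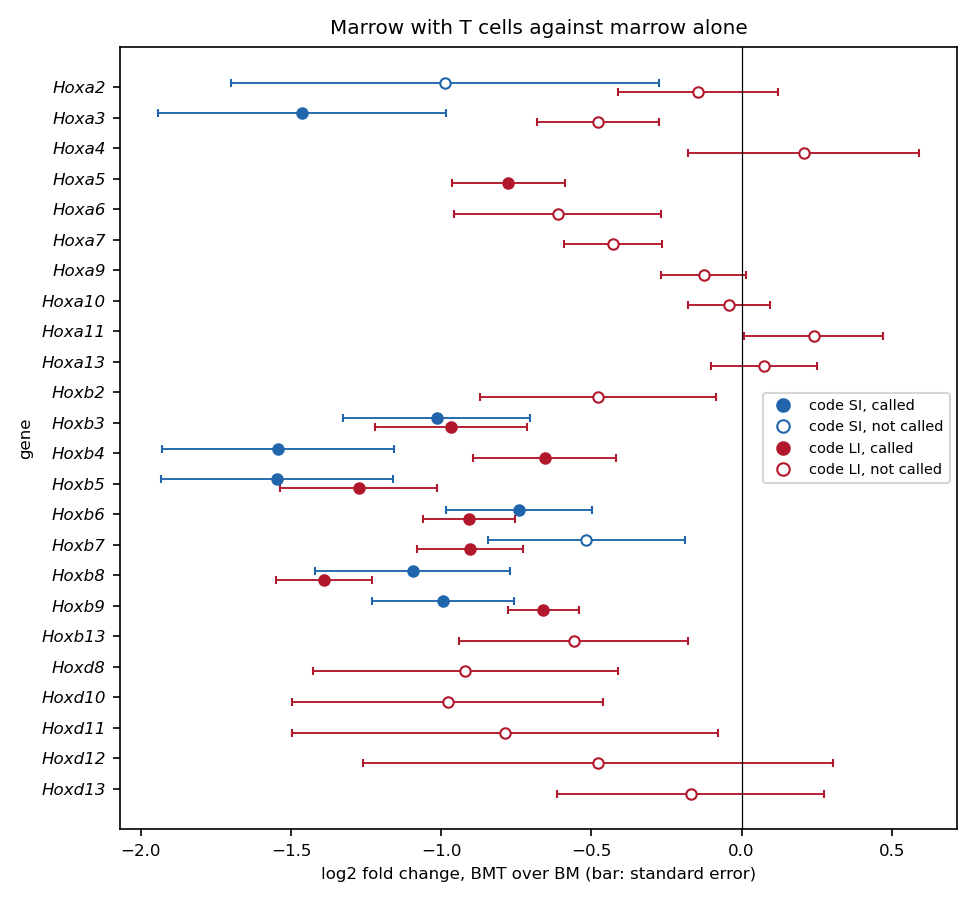
Log2 fold change of BMT against BM for tested Hox genes in LI and SI, with bars of 1 standard error and filled points for called genes, ordered by cluster and paralog number. The Hoxb genes from Hoxb3 to Hoxb9 lie below 0 in both sets, while Hoxa9, Hoxa10 and Hoxa13 lie between -0.13 and 0.07 in LI.

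In liver only Hoxb4 passed the filter on low counts. It had 3, 6 and 9 counts in BM and 16, 14 and 10 counts in BMT, so that all BMT libraries lay above all BM libraries (11.2% of all genes did), but it was called by neither edgeR nor DESeq2 (log2 fold change 1.22 ± 0.44, edgeR adjusted p = 0.127, beside 7.46% of all genes called higher and 3.35% lower). With so few counts the other 38 Hox genes could not be compared between treatments in liver.

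The counts of calls in the gene lists that follow stand beside shares of all genes of 20% higher and 15.6% lower between LI and SI, 20.4% and 21% with treatment in LI, and 11.6% and 11.8% with treatment in SI. Of the proteins that bind DNA with Hox proteins, 1 of 5 tested was lower in LI with treatment and 1 of 6 in SI, with 0 higher in both (by edgeR, and 0 at an unadjusted p under 0.05). Between LI and SI, 2 of 6 cofactors were higher in LI, among them Pbx3 by 0.42 on the log2 scale (adjusted p = 0.0414). Meis1, a cofactor best known from blood stem cells, ran from 0 to 0.214 CPM in both intestinal sets and from 5.57 to 13.4 CPM in liver.

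Cdx2 and Cdx1, ParaHox genes and master regulators of intestinal identity, were present in both intestinal sets and at 0 in all 6 liver libraries. Cdx2 ran from 251 to 375 CPM in LI and from 175 to 271 CPM in SI, which put LI higher by 0.54 ± 0.11 in log2 units (adjusted p = 0.00137). Cdx1 was higher in LI by 0.33 ± 0.11 (adjusted p = 0.0301). Cdx2 fell in LI from 350 to 375 CPM in BM to 251 to 288 CPM in BMT (log2 fold change -0.43 ± 0.13, adjusted p = 0.022) and was not called in SI (adjusted p = 0.526). Cdx1 was called in neither set (adjusted p = 0.292 in LI and 0.197 in SI). Pdx1, the ParaHox gene of duodenum and pancreas, was higher in LI than in SI by 2.16 ± 0.27 (adjusted p = 1.502e-05), and in SI it rose with treatment by 1.46 ± 0.44 (adjusted p = 0.0353), with no call in LI (adjusted p = 0.366).

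Regional transcription factors outside the clusters split by set. Gata4, which marks the proximal small intestine, ran from 0.156 to 0.805 CPM in LI and from 4.03 to 13.4 CPM in SI (log2 fold change -4.35 ± 0.35, adjusted p = 9.49e-08) and was not called with treatment (adjusted p = 0.217 in LI and 0.607 in SI). Of 16 tested regional factors 5 were higher and 7 lower in LI than in SI, the lower ones including Hnf4g (-2.49) and Osr2 (-2.11). With treatment, 7 of 15 were lower and 1 higher in LI, led by Nr5a2 (-1.27, adjusted p = 2.52e-05), and 4 of 16 were lower and 1 higher in SI, led by Sox9 (-1.22, adjusted p = 0.000387).

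Retinoic acid turns on Hox genes of low number in the embryo. Of 11 tested genes of its synthesis, breakdown and receptors, 5 were higher and 3 lower in LI than in SI, with Rbp2, a retinol carrier of the small intestine, lower by 4.31 and Aldh1a3, which makes retinoic acid, higher by 3.90 on the log2 scale. With treatment 3 of 10 were higher and 2 lower in LI, and 2 of 9 were higher and 1 lower in SI. Rbp2 rose in both, by 1.21 in LI and 2.65 in SI.

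Polycomb complexes keep Hox genes silent, and trithorax proteins keep them active. Of 25 Polycomb genes, 2 were higher and 5 lower in LI than in SI, near or below the shares of all genes, among them Phc1 (1.19, adjusted p = 2.05e-06) and Cbx8 (-0.88, adjusted p = 0.000239). With treatment 7 were lower and 3 higher in LI, including Cbx6 (1.37, adjusted p = 0.00681) and Ezh1 (-0.52, adjusted p = 0.00762), and 6 were lower and 0 higher in SI by edgeR (9 and 2 at an unadjusted p under 0.05), among them Cbx8 (-0.93, adjusted p = 0.00532). In liver 1 was higher. Of 16 trithorax and H3K27 demethylase genes, Mllt3 was the 1 called between LI and SI (0.55, adjusted p = 0.00172). With treatment 1 was higher (Dot1l, 0.70) and 3 lower (Ash1l, -0.70, among them) in LI, and edgeR called 0 in SI, with 1 lower at an unadjusted p under 0.05.

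Of 20 noncoding genes within the clusters 8 were tested between LI and SI, and the 8 were higher in LI (20% of all genes were). Of these, 5 passed the filter in LI and not in SI, and so entered through the set where they are high. Hottip, a long noncoding RNA at the Hoxa13 end, ran from 4.38 to 9.07 CPM in LI, and Hoxa11os, antisense to Hoxa11, from 4.97 to 13.7 CPM, and both were at 0 in SI and liver. Gm53, which lies between Hoxb9 and Hoxb13, ran from 56.7 to 66.4 CPM in LI BM and from 32.2 to 34.5 CPM in LI BMT (log2 fold change -0.86 ± 0.13, adjusted p = 0.00041), and from 19.1 to 34.5 CPM in SI BM and 11.9 to 20.3 CPM in SI BMT without a call (adjusted p = 0.0626). Hoxb5os was the other noncoding gene lower in LI (-1.34, adjusted p = 0.0189), and edgeR called 0 of 3 in SI, with 2 lower at an unadjusted p under 0.05. Mir196a-1, chosen after its values were seen because its microRNA is printed above, was counted at 1.70 to 4.02 CPM in LI and 0.643 to 2.32 CPM in SI, higher in LI by 1.01 ± 0.23 (adjusted p = 0.00238).

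Genes that flank the clusters did not all follow them. Of 19 tested, 8 were higher and 1 lower in LI than in SI. Evx1, the homeobox gene next to Hoxa13, ran from 1.64 to 1.98 CPM in LI BM and from 3.81 to 5.52 CPM in LI BMT (log2 fold change 1.39 ± 0.23, adjusted p = 0.000936), a rise beside Hoxa genes of groups 9 to 13 that were not called. Ttll6, on the Hoxb13 side of its cluster, fell from 14.8 to 16.2 CPM in LI BM to 2.91 to 4.62 CPM in LI BMT (log2 fold change -1.96 ± 0.22, adjusted p = 5.31e-05). At the other end of the Hoxb cluster Skap1, an adaptor of T cells, rose from 0.117 to 0.306 CPM in LI BM to 7.96 to 16.3 CPM in LI BMT (log2 fold change 5.96 ± 0.41, adjusted p = 1.95e-06), in the libraries where T cell markers rose. With treatment 4 flanking genes were higher and 5 lower of 18 in LI, and 3 higher and 1 lower of 16 in SI.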

How the data were processed

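The authors deposited a single table of raw counts (unscaled reads per gene) and gene lengths for 53379 genes and 18 libraries, made from polyA RNA with a stranded kit per the labels' protocols. FastQC 0.11.9, STAR 2.7.0e, featureCounts 1.6.3 and GRCm38.p5 are named in the submitters' processing notes, with annotation release and strand setting not given in the sources used here. Where a gene has an antisense partner, its reads may therefore sit in either. The members and gene lists were chosen with earlier results of these data known.

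Genes were named through a GENCODE M21 table for 53274 IDs, with 0.00257% of counts in unnamed IDs. CPM used raw library totals of 18845483 to 25610937 counts, and RPKM the deposited lengths. Each comparison was fitted with edgeR 4.0.16 in R 4.3.3 (expression filter by group, TMM, two-sided quasi-likelihood F-test, Benjamini-Hochberg adjustment over all genes tested, call at 0.05). BMT was set against BM within each set of 6 libraries, and sets against each other in 12, with treatment balanced. The standard error is the log2 fold change over the square root of F. A fold against a set at 0 was taken against 3 counts over the set, and ratios with few counts carry exact 95% intervals. No libraries were duplicates (over 18 pairs of replicates, chi-square divided by its degrees of freedom ran from 9.86 to 187).

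Alternatives were RLE size factors, no filter, DESeq2 1.42.0, each library left out, a replicate block, lane L002 libraries, all 18 libraries and other library sizes. Values per library are given for Hox genes with a mean of at least 5 CPM in any set and for those called with treatment, full statistics for up to 10 genes per comparison with the smallest p, and of other lists Cdx1, Cdx2, Gata4, Meis1 and up to 2 called genes each. Some genes are not reported here. Pdx1, Hottip, Hoxa11os, Gm53, Hoxb5os, Evx1, Ttll6, Skap1 and Mir196a-1 were also named where counts were small or their place in a cluster mattered, after their values were seen. In simulated counts, 2-fold and 4-fold changes were recovered for 58% and 90% of genes in LI (14620 genes), 50% and 90% in SI (14376 genes), 38% and 88% in liver (13905 genes) and 72% and 97% between LI and SI (15412 genes).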

Additional observations from a re-analysis of the deposited data

How the results depend on the processing

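In BMT against BM the number of Hox genes lower in LI was 8 and ran from 7 to 12 with a library left out and from 7 to 13 otherwise, the 13 coming from scaling to epithelial markers, which was chosen after seeing the data. In SI it was 7 and ran from 2 to 5 with a library left out and from 6 to 7 otherwise, so the SI calls rest on all 6 libraries. No Hox gene was higher in LI or SI under any alternative run. The difference between LI and SI had 0 calls in each direction, and 0 to 1 with a library left out (Hoxa5 without SI BM library 1, Hoxa3 without SI BMT library 1). Between LI and SI 20 genes were higher, and 20 to 23 under the alternatives. Between SI and liver 8 were higher (8 to 11), and 1 was lower without the filter and 1 with all 18 libraries fitted (Hoxa5), against 0. The summed Hox level moved to 418 CPM with TMM-scaled libraries and to 559 CPM without mitochondrial genes in LI BM (502 CPM as reported), and to 2.11 CPM in BM and 3.35 CPM in BMT of liver with TMM-scaled libraries (1.59 and 2.19 CPM). Of single-gene values, 32 lost and 17 gained a call, and 0 reversed a call. In LI and in SI the lane alternative left out 1 library, and being the same fit as without that library (LI BMT 3, SI BMT 2) it is counted once. The epithelial scaling moved the median of all genes to -0.09 between LI and SI and to -0.12 for the difference, and the share of calls that were higher to 47% (from 56.1%) and 38.2% (from 53.2%).

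The titles repeat replicate numbers between BM and BMT, and the descriptions repeat 6 numbers across tissues that the labels do not tie to animals. Correlations of deviations from group means between libraries of the same description number ran from -0.166 to 0.322 for LI and SI, from -0.0375 to 0.225 for LI and liver and from 0.0199 to 0.157 for SI and liver. By title number between BM and BMT they ran from -0.233 to 0.0646 in LI, from -0.151 to 0.109 in SI and from -0.0331 to 0.448 in liver. Not all of any kind were above 0.1, so the pairing was not taken as given. With the replicate block, by title number within a tissue and by description number between tissues, 7 Hox genes were lower in LI (without Hoxb4) and 6 in SI (without Hoxb6), 20 were higher in LI than in SI, 24 in LI and 8 in SI than in liver, and 0 differed between LI and SI in the treatment effect. Hox genes with few counts in SI and liver limit the comparison there to levels above 0.122 to 0.159 CPM in a library, or 0.0221 to 0.0232 CPM over the 6 libraries of a set.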
